A study of Homo sapiens with 4 samples.

Results

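C/D box small nucleolar RNAs are short nuclear RNAs that carry a pair of sequence boxes, C and D, and assemble with the proteins fibrillarin, NOP56, NOP58 and SNU13. Most of them base-pair with ribosomal RNA and direct fibrillarin to methylate a ribose there, and a few act in the cleavage or acetylation of the ribosomal RNA precursor. Most human ones lie in introns of host genes and are trimmed from the intron after splicing, so their supply is tied to the transcription and splicing of the host. The genes described here were selected on their annotated symbol (starting with SNORD) and on intensity, and 51 of 115 genes with a probe set of their own met both conditions. They stand among 10373 genes kept by the same intensity limit of 155, the median of all values of probe sets that name 1 gene.

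RNA came from MCF12A, an established non-tumorigenic human breast epithelial line, grown as monolayers. All 4 cultures shared a serum-containing medium to which insulin, hydrocortisone, cholera toxin and EGF (a growth factor for epithelium) had been added. The 4 Affymetrix Human Gene 1.0 ST arrays held a culture given ethanol (25 mM) over 1 week with its unexposed culture (control 1), and a culture given acetaldehyde (2.5 mM) for as long with an unexposed culture of its own (control 2). With 1 array per group no difference below has a replicate error or a test, and the number of arrays limits the precision. Differences are log2 values of an exposed array minus its own control, and folds are ratios of deposited linear intensities. The sorted values of the arrays lay closest inside a pair. The mean gap was 0.0398 (log2) between ethanol and control 1 and 0.0268 between acetaldehyde and control 2, but 0.270 to 0.285 between arrays of different pairs. Whether the pairs were normalized together is not stated in the sources used, and the part of normalization in these gaps was not tested. The epithelial identity was visible in KRT5, the keratin of basal epithelium, at 9757 to 12169 on the 4 arrays, while the leukocyte marker PTPRC stayed at or below 15.9. Of the 8 blood and endothelial markers measured, 7 lay below the limit. The monocyte marker CD14 passed it, at 189 and 287 in the ethanol pair and at 279 and 183 in the acetaldehyde pair, a difference of 0.60 and of -0.61. Of 7 fibroblast markers 5 lay below the limit, and DCN went from 34.6 and 34.8 in the ethanol experiment to 177 and 187 in the acetaldehyde experiment. The part of other cells in the results was not tested. The basal keratin KRT14 differed more between cultures, from 822 with acetaldehyde to 5075 in control 1. Of 7 basal markers it alone was at least 1.5-fold lower than its own control, at -0.66 with ethanol and -0.95 with acetaldehyde. Of kept genes 4.22% and 0.974% were. LAMB3 alone was at least 1.5-fold higher, at 1.35 and 0.59 (5.44% and 0.742% of kept genes). In control 2 against control 1 they were at -1.68 and 0.73. Of 8 epithelial markers, CDH1, EPCAM, KRT7 and CLDN4 were at least 1.5-fold lower in control 2 than in control 1, where 12.9% of kept genes were. KRT19 was at least 1.5-fold higher there (14.9% of kept genes), and the median of the 8 was -0.56. With ethanol EPCAM, KRT8 and KRT18 were at least 1.5-fold higher (5.44% of kept genes) and DSP was lower, at -1.02 (4.22%).

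Several limits of the measurement belong beside every value. Column kits of the kind used for these samples are made for longer RNA, and a probe set inside an intron also reads the unspliced host transcript, so mature small nucleolar RNA and host intron cannot be told apart here. In a whole culture, fewer cells holding an RNA and less of it per cell cannot be told apart either. Close copies can share probes. SNORD13 and its annotated pseudogene SNORD13P3 had nearly the same values on each array, and the SNORD116, SNORD45, SNORD14, SNORD4 and SNORD15 members are related copies within single host genes, so each such group counts as fewer than its number of genes.

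The members' hosts are shown by their transcription starts, since the host, and not the small RNA, is what RNA polymerase starts on. In the RefSeq gene table the span of another gene held 50 of the 51 members. SNORD13, which is made from its own promoter, was the exception. The 50 members lay in 26 host genes, of which 23 had a start sequence in the RefSeq table of assembly GRCh38.p14. A known feature of genes for the translation machinery is a pyrimidine tract at the first transcribed base, a C followed by more C or T. The tract sought was a C at the annotated start followed by at least 4 bases that are each C or T. Read on the strand with the sequence of the RNA, it was found in 9 of these 23 hosts (39.1%). Of 27305 genes with a start sequence, 1104 had it (4.04%). The lines below run from 15 bases before the annotated start to the 30th base from it, with the tract in capitals. GAS5 and HSPA8 are given as hosts without a tract in this position, which says only that these letters are not at the annotated base.

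RPL13A, chr19:49487593-49487637, plus strand: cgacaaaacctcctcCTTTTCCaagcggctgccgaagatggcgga
RABGGTB, chr1:75786241-75786285, plus strand: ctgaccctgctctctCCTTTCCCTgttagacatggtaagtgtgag
RACK1, chr5:181243877-181243921, minus strand: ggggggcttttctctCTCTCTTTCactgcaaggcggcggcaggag
RPS3, chr11:75399503-75399547, plus strand: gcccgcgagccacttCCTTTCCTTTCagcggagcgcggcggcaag
SNHG5, chr6:85678704-85678748, minus strand: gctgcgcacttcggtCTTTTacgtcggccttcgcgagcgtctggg
ZFAS1, chr20:49278627-49278671, plus strand: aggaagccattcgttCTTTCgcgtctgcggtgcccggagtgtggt
GAS5, chr1:173869016-173869060, minus strand: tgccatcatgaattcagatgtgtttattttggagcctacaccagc
HSPA8, chr11:123062107-123062151, minus strand: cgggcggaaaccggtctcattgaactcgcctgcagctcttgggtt

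The 16 members in hosts with the tract and the 28 in hosts without it had acetaldehyde medians of 0.44 and 0.38. Their ethanol medians were 0.04 and 0.16, and for control 2 against control 1 they were -0.41 and -0.08.

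The 6 brightest members were SNORD13, SNORD33, SNORD13P3, SNORD116-15, SNORD41 and SNORD57. SNORD13 guides acetylation of the small ribosomal RNA, and its intensity was 8374 in control 1 and 10097 with ethanol, and 6872 in control 2 and 6349 with acetaldehyde. SNORD33, a methylation guide from an intron of RPL13A, was at 8459 and 8291 in the ethanol pair and at 7218 and 7131 in the acetaldehyde pair. Levels of different probe sets are not comparable as amounts of RNA, so this describes the array signal only. The dimmest members by their highest array were SNORD94 (174), SNORD55 (176) and SNORD52 (180), and the brightest genes left out were SNORD83A (151), SNORD116-6 (146) and SNORD50B (129). Of the 64 left out, 20 were SNORD115 genes, none of which passed 19.8 on any array, 13 were SNORD116 genes, and 6 were SNORD113 or SNORD114 genes. These are copies in imprinted clusters expressed mostly in brain. Another 7 SNORD116 genes were however among the members, and SNORD116-15 was among the 6 brightest. No single-gene probe set named the cleavage RNAs SNORD3, SNORD118 or SNORD22.

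**Figure D1:**
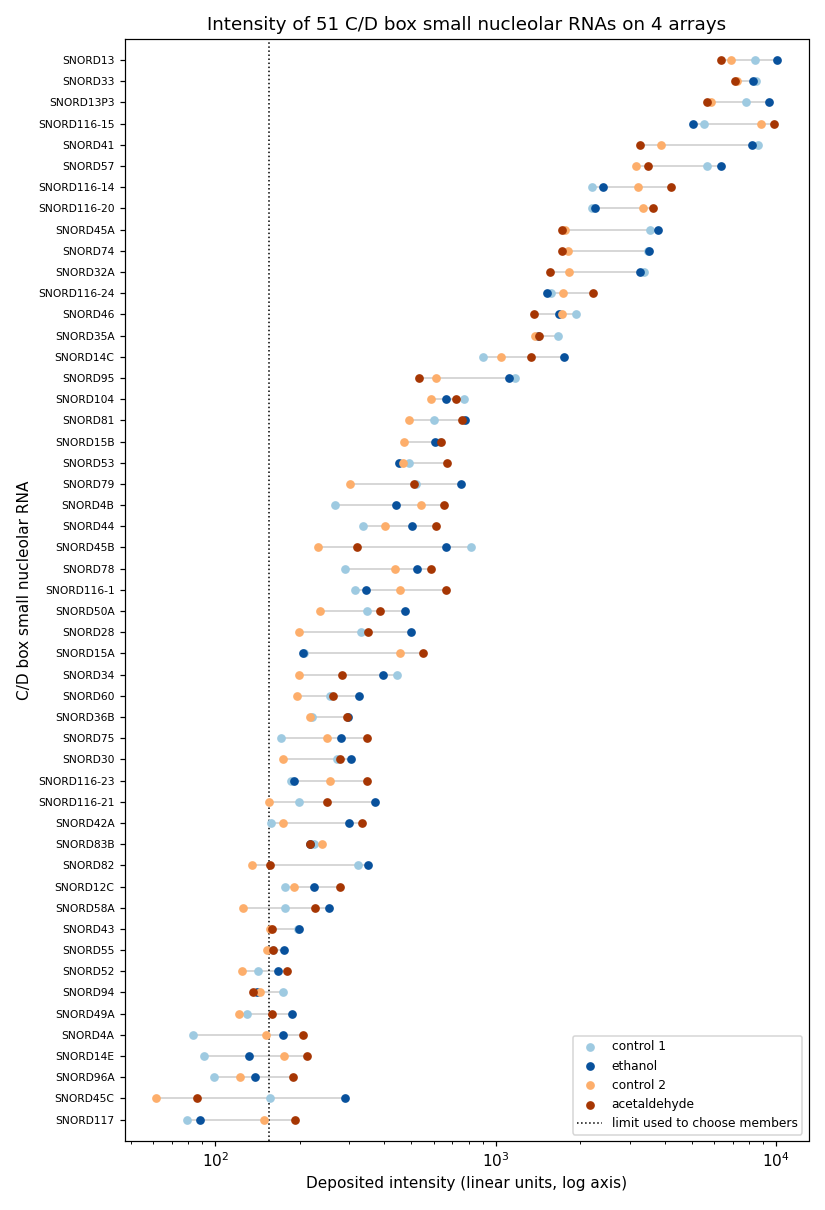
Deposited intensity (linear units on a log axis) of each of the 51 C/D box small nucleolar RNAs on the 4 arrays, ordered by mean level; each point is 1 array and the dotted line is the limit of 155. Control 2 is the lowest array for 21 members and control 1 for 15, while ethanol and acetaldehyde are each the highest for 20.

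With acetaldehyde, 40 of the 51 members were above control 2, where 50.7% of all kept genes were. The median difference was 0.39, against 0.0031 over all kept genes. At least 1.5-fold higher were 10 members, where 0.742% of all kept genes were, and 0 were at least 1.5-fold lower, where 0.974% of kept genes were. With an offset of 50 added before the log, 5 members were at least 1.5-fold higher, and with 1 value per host gene 3 of 27 were. No member reached 2-fold in the deposited values, and SNORD42A passed it after joint normalization of the 4 arrays. SNORD58A and SNORD96A passed the limit of 155 in the exposed array while their control 2 values lay below it. SNORD117, SNORD49A, SNORD4A, SNORD52 and SNORD96A, all among the 40, had both controls below the limit. These 5 were kept only because an exposed array passed it, so their place above a control was in part built in by the selection. The members were chosen on values of these arrays, so these counts describe them and test nothing.

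The largest acetaldehyde differences came from hosts of different kinds. SNORD42A, a guide from an intron of the ribosomal protein gene RPL23A, was at 175 in control 2 and 333 with acetaldehyde (1.90-fold), and at 158 in control 1 and 299 with ethanol (1.89-fold). Both exposed arrays were above both controls. SNORD58A, from the ribosomal protein gene RPL17, was at 126 in control 2 and 228 with acetaldehyde (1.81-fold), and at 178 and 254 in the ethanol pair. SNORD28 lies in SNHG1, a non-coding host that carries a series of small nucleolar RNAs. It was at 199 in control 2 and 351 with acetaldehyde (1.76-fold), and at 331 and 498 in the ethanol pair. SNORD50A, in the non-coding host SNHG5, was at 236 and 387 in the acetaldehyde pair (1.64-fold) and at 348 and 475 in the ethanol pair. In each of these RNAs the exposed arrays stood above both controls. The other members at least 1.5-fold higher were SNORD79, SNORD116-21, SNORD30, SNORD96A, SNORD81 and SNORD44, with differences between 0.61 and 0.76. SNORD30 and SNORD96A are named because they completed the count.

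At the low end of the acetaldehyde comparison, SNORD46 was at 1725 in control 2 and 1367 with acetaldehyde (-0.34). SNORD41, from the importin gene TNPO2, was at 3878 and 3268 (-0.25), and SNORD32A, from RPL13A, at 1817 and 1564 (-0.22). SNORD95 (-0.20), SNORD83B (-0.14) and SNORD13 (-0.11) followed. These 6 all lay within 1.5-fold of control 2, and 4 of them had a mean intensity of at least 1000 over the arrays.

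With ethanol, 35 of the 51 members were above control 1, where 57.8% of kept genes were, and the median was 0.16 against 0.0512. The 35 included the 5 members with both controls below the limit, which were kept only through an exposed array. At least 1.5-fold higher were 10 members, where 5.44% of kept genes were, and 0 were at least 1.5-fold lower, where 4.22% were. After centring each array on the median of its kept genes, 31 of the 51 were above control 1, the median was 0.0848, and 8 members were at least 1.5-fold higher. With 1 value per host gene 2 of 27 were at least 1.5-fold higher, a count near the 5.44% of all kept genes. Each such value is the median of a host's members. The median of the 27 was 0.21, and 19 of them were above control 1. SNORD4A, from RPL23A, had the largest ratio of the deposited values, at 83.3 in control 1 and 174 with ethanol (2.09-fold). Its controls lay below the limit of 155, so the size is uncertain. It fell short of 2-fold after centring and after joint normalization, and came behind SNORD14C with the offset. Its control 2 value of 152 was close to the ethanol value, and acetaldehyde gave 205. SNORD14C, a copy of the U14 RNA that acts in cleavage of the ribosomal RNA precursor, was at 904 in control 1 and 1744 with ethanol (1.93-fold), and at 1045 and 1339 in the acetaldehyde pair. Its host HSPA8, the constitutive heat shock chaperone, was itself at 13143 and 14070 in the ethanol pair (0.10). The copy SNORD14E in the same host was at 91.1 and 132 with ethanol (1.44-fold), below the 175 of control 2.

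SNORD116-21 (0.90), SNORD45C (0.89), SNORD78 (0.85), SNORD4B (0.72) and SNORD75 (0.71) were also at least 1.5-fold above control 1. SNORD28 and SNORD44 were at 0.59 each, just past the 1.5-fold line at 0.585, and fell short of it after centring. SNORD4B, at 268 in control 1 and 443 with ethanol, was the only called member whose ethanol value lay below control 2 (542). The lowest ethanol differences were those of SNORD94 (-0.30), SNORD45B (-0.30), SNORD35A (-0.24), SNORD104 (-0.21), SNORD46 (-0.20) and SNORD34 (-0.17), none of them 1.5-fold. SNORD34 and SNORD35A share the host RPL13A, whose small nucleolar RNAs are known from work on lipid and oxidative stress. All 4 of the RPL13A members were below control 1 with ethanol, by 0.24 or less.

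The count of called members was next limited to those above both unexposed cultures. For ethanol 9 of the 10 were above both, where 3.84% of kept genes were at least 1.5-fold higher and above both. For acetaldehyde it was also 9, all but SNORD79, where 0.569% of kept genes met the same rule. Both exposed arrays stood above both control arrays for 18 members, where 11.5% of kept genes did, and below both for SNORD46, SNORD83B and SNORD94, where 8.61% did. The 18 included SNORD42A, SNORD44, SNORD12C, SNORD49A, SNORD36B and SNORD60, from 6 different hosts. Among the 18, SNORD49A, SNORD4A, SNORD52 and SNORD96A had both controls below the intensity limit. They were kept only because an exposed array passed that limit. For them an exposed array above both controls was therefore built in by the selection. All kept genes were selected by the same limit. The exposures are different agents at different doses, and their matched differences share no array.

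Side by side, 31 of the 51 members were above their own control in both exposures, where 35.4% of kept genes were. Of the others, 7 were below in both, 9 below with ethanol and above with acetaldehyde, and 4 the reverse. Shares over all kept genes were not computed for these smaller counts. The 31 included the 5 members with both controls below the limit, which were kept only through an exposed array. At least 1.5-fold higher in both were SNORD42A, SNORD116-21, SNORD28 and SNORD44, where 0.270% of kept genes were. After centring or joint normalization SNORD28 and SNORD44 fell short with ethanol, and with the offset SNORD42A alone passed in both. Across the 51 members the paired differences correlated with r = 0.551 and rho = 0.537. This is a description over genes that share arrays and, in part, hosts. Over all kept genes r was 0.388. The acetaldehyde difference was the larger for 31 members, a count for which the share over all kept genes was not computed.

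**Figure D2:**
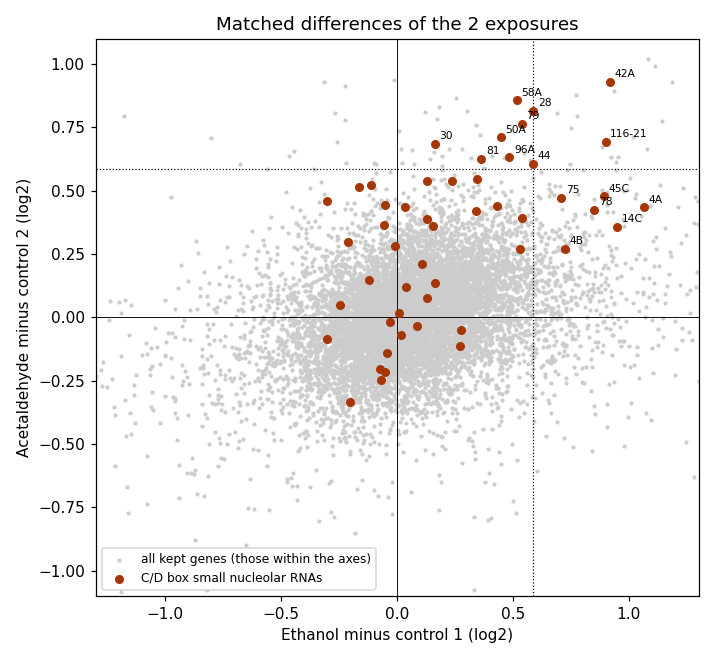
Difference of each gene with ethanol (x axis) and with acetaldehyde (y axis), both log2 against the matched control; grey points are kept genes within the axes, coloured points the 51 members, and dotted lines mark 1.5-fold. Members at least 1.5-fold higher in either exposure (16) carry their SNORD number, and none lies below -0.34 on either axis.

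The differences went with the level of the signal. A division at a mean intensity of 1000, set after the values were seen, left 36 dimmer and 15 brighter members. With acetaldehyde 33 of the 36 dimmer members were above control 2 (median 0.45), against 7 of the 15 brighter ones (median -0.0175). With ethanol these were 27 of 36 (median 0.34) and 8 of 15 (median 0.0155). The 36 held all 5 members with both controls below the limit, SNORD117, SNORD49A, SNORD4A, SNORD52 and SNORD96A, which were kept only through an exposed array. Their place above a control was in part built in by the selection. All kept genes under the same division gave acetaldehyde medians of 0.00070 and 0.0131, and ethanol medians of 0.0452 and 0.0755. Over the 51 members the acetaldehyde difference and the mean log2 level had r = -0.544 and rho = -0.430, and the ethanol difference r = -0.361 and rho = -0.370. The part of signal level in the members' differences was not tested.

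**Figure D3:**
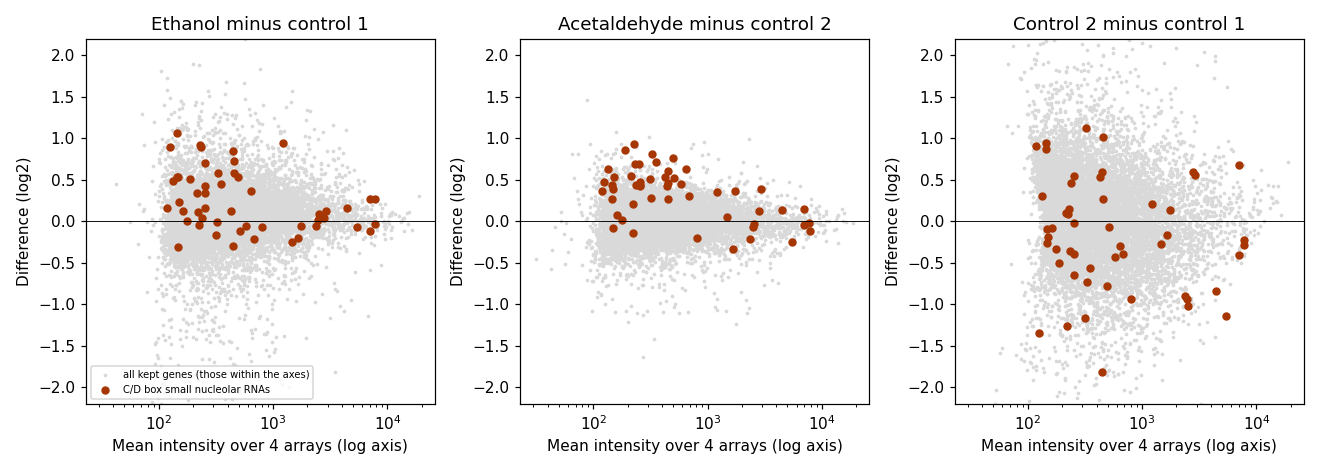
Difference (log2) against mean intensity over the 4 arrays (log axis) in the 3 comparisons; coloured points are the 51 members and grey points all kept genes within the axes. In the acetaldehyde panel 33 of 36 members under 1000 lie above 0, and members above 1000 lie between -0.34 and 0.39.

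Members of a shared host were then set beside each other. GAS5 is a non-coding host with members in its introns and an exonic RNA that is quickly degraded in the cytoplasm. Its 6 members had a median of 0.56 with ethanol and 0.54 with acetaldehyde, and they ranged from 0.0155 to 0.85 and from -0.0689 to 0.76. SNORD44, a common reference RNA in small RNA assays, was at 335 and 503 in the ethanol pair (control first) and at 403 and 613 in the acetaldehyde pair. Both exposed arrays were above both controls. SNORD78 was at 290, 524, 437 and 586 in the same order, and SNORD75 at 172, 281, 250 and 347. SNORD79 was at 518 and 752 in the ethanol pair and at 302 and 513 in the acetaldehyde pair, so that control 1 and acetaldehyde nearly coincided. SNORD74, the brightest of the cluster, was at 3481, 3519, 1813 and 1728, level within each pair and lower in the acetaldehyde experiment. RNAs of a single host thus ranged from level to 1.80-fold higher with ethanol.

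The 3 members of RPL23A were above control in both exposures, by 0.72 to 1.06 with ethanol and by 0.27 to 0.93 with acetaldehyde. The probe set annotated to RPL23A was at 0.05 and 0.03, but whether it reads this host or a processed copy is uncertain. In SNHG1, SNORD28 and SNORD30 were at 0.82 and 0.69 with acetaldehyde and at 0.59 and 0.16 with ethanol. The SNORD45 copies of RABGGTB, a gene for a subunit of the enzyme that attaches lipid anchors to Rab proteins, went separate ways. SNORD45C was at 156 in control 1 and 290 with ethanol, SNORD45B at 817 and 663, and SNORD45A at 3561 and 3782. In the acetaldehyde pair SNORD45B was at 233 and 320, SNORD45C at 61.7 and 85.9, and SNORD45A at 1759 and 1716. All 3 copies were lower in both arrays of the acetaldehyde experiment than in either array of the ethanol experiment.

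SNORD116 genes belong to a paternally expressed, imprinted cluster in SNHG14 and have no established ribosomal RNA target. All 7 members were above control 2 with acetaldehyde, from 0.12 to 0.69 (median 0.39). With ethanol 5 of 7 were above control 1, and 3 of 7 after centring. The median was 0.04, and SNORD116-21 stood alone at 0.90 (372 with ethanol). SNORD116-14 was at 2196 and 2404 in the ethanol pair and at 3227 and 4221 in the acetaldehyde pair, and SNORD116-1 at 316 and 345, and 458 and 665. In both, the acetaldehyde experiment was higher than the ethanol experiment and the acetaldehyde array the highest.

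For 13 hosts of 20 members a single-gene probe set passed the limit. None was called in either exposure, which for 13 genes is near the shares over all kept genes (5.44% higher and 4.22% lower with ethanol, 0.742% and 0.974% with acetaldehyde) and shows nothing particular to the hosts. Their medians were 0.08 with ethanol and 0.03 with acetaldehyde. The member was above its host's difference in 14 of 20 cases with ethanol and 16 of 20 with acetaldehyde, with median gaps of 0.33 and 0.23. ZFAS1, the host of SNORD12C, was at 990.0 in control 2 and 1238 with acetaldehyde (0.32), where SNORD12C was at 190 and 278 (0.55). TNPO2 was at 893 and 606 in the ethanol pair (-0.56), where SNORD41 was at 8576 and 8169 (-0.07). WDR43, the gene of a ribosome assembly factor, was at 0.18 and 0.19 in the exposures, where its RNA SNORD53 was at -0.11 and 0.52. Ribosomal protein genes have many processed copies, so their probe sets are uncertain as readings of the host. GAS5, SNHG1, SNHG5, RPL13A and SNHG14 had no single-gene probe set used here.

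**Figure D4:**
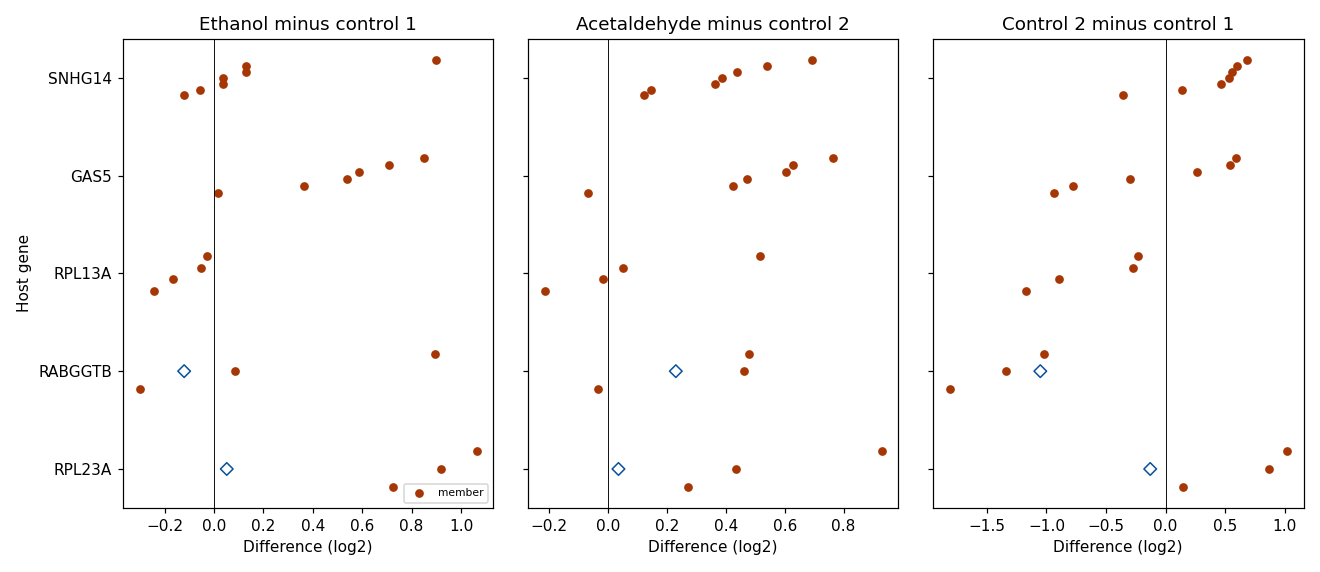
Differences (log2) of members in the 5 host genes that hold at least 3 of them, in the 3 comparisons. Filled points are members, and open diamonds the probe set annotated to the host where a single-gene one passed the limit. The diamond of RPL23A may read a processed copy. The 3 members of RPL23A lie to the right of 0 in both exposures, as do those of GAS5 except SNORD74 with acetaldehyde (-0.07), and those of RABGGTB to the left for control 2 against control 1.

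The unexposed cultures were also set against each other. More members passed 1.5-fold here than in either exposure, and so did more of all kept genes. Control 2 was above control 1 for 19 of 51 members, where 54.5% of kept genes were, with a median of -0.23 against 0.0570. Without the intensity limit the direction turned, with 63 of 115 genes above control 1 and a median of 0.0792, against 0.22 over all genes. At least 1.5-fold higher in control 2 were 8 members, where 14.9% of kept genes were, and 13 were at least 1.5-fold lower, where 12.9% were. This comparison crosses the experiments. With all 4 arrays normalized together its median was -0.32. It also shares an array with each exposure comparison.

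SNORD45B was lowest at 817 in control 1 and 233 in control 2 (3.51-fold), followed by SNORD45C (2.53-fold) and SNORD82 (2.39-fold). The control 2 values of SNORD45C (61.7) and SNORD82 (135) lay below the limit of 155, so the size and order of their differences are uncertain. SNORD82 lies in NCL, the nucleolin gene, and was at 324 and 135, whereas NCL was at 1718 and 1600. The host RABGGTB was itself lower in control 2, at 608 and 293 (-1.05). SNORD34 (-1.17), SNORD41 (-1.14) and SNORD45A (-1.02) completed the 6 lowest. At the other end SNORD15A, from the ribosomal protein gene RPS3, was at 207 in control 1 and 454 in control 2 (2.19-fold), while its neighbour in the same gene, SNORD15B, was at 631 and 469. SNORD4B (2.02-fold), SNORD14E (1.93-fold), SNORD117 (1.88-fold), SNORD4A (1.82-fold) and SNORD116-15 (1.61-fold) followed. SNORD14E, SNORD117 and SNORD4A lay below the limit in control 1. For SNORD15A and SNORD45B the exposed array lay closer to its own control than to the other experiment. The exposed values were 206 and 663 with ethanol and 552 and 320 with acetaldehyde.

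Other small RNA classes gave a comparison. H/ACA small nucleolar RNAs, which guide pseudouridylation, had 34 kept genes, of which 27 were above control 2 with acetaldehyde (median 0.20) and 11 above control 1 with ethanol (median -0.16). Small Cajal body RNAs, which guide modification of spliceosomal RNAs, had 11, all above control 2 (median 0.42) and 8 above control 1 (median 0.14). At least 1.5-fold higher were 3 of these 11 in each exposure, and of the 34 H/ACA RNAs 0 with ethanol and 2 with acetaldehyde. Over all kept genes the shares were 5.44% and 0.742%. At least 1.5-fold lower were 2 of the 34 with ethanol and 1 with acetaldehyde, and 0 of the 11. The shares of kept genes were 4.22% and 0.974%. Of 8 small nuclear RNAs 6 were above control 2 (median 0.16) and 4 above control 1 (median -0.05). MicroRNA genes leaned downward, with 9 of 26 above control 2 (median -0.07) and 6 above control 1 (median -0.19). Of the 26, 2 were at least 1.5-fold higher with ethanol and 1 with acetaldehyde, and 0 lower, beside the same shares. Whether the C/D box class differed from these was not tested, with 1 array per group. Unnamed probe sets also leaned upward. Of 3386 that passed the limit, 8.15% were at least 1.5-fold higher and 1.12% lower with acetaldehyde, and 9.75% and 2.48% with ethanol. The part of such a lean in the members' values was not tested.

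Protein genes of the pathway are given by their values and medians. None was called in either exposure, which is read against the shares over all kept genes. With acetaldehyde 0.742% were higher and 0.974% lower, so that 0 calls in lists of this size shows nothing particular to them. With ethanol the shares were 5.44% and 4.22%, and 0 calls over the lists together lies below them. This was not tested. Of the core proteins, FBL (fibrillarin, the methyltransferase), NOP58 and RRP9 (specific to the U3 particle) were measured. NOP58 was at 876 and 1060 in the ethanol pair (0.28) and at 810 and 940 in the acetaldehyde pair (0.21), whereas FBL was at -0.09 and -0.06. The 12 assembly factors had medians of 0.18 and 0.10 for ethanol and acetaldehyde. The largest were HSP90AA1 (0.44) with ethanol and COIL, the scaffold of the Cajal body, with acetaldehyde (0.30). The 22 processing and turnover genes had medians of 0.25 and 0.06. Among them were the exonuclease XRN2 (0.54 with ethanol), the exosome subunit EXOSC8 (0.38 with acetaldehyde) and DBR1, the enzyme that opens intron lariats (0.22 with acetaldehyde). In the processome that contains the U3 RNA the 34 genes had medians of 0.08 and 0.09, and UTP20 (0.52 with ethanol) and UTP11 (0.40 with acetaldehyde) led. The medians were 0.13 and 0.07 over 17 RNA polymerase I genes, 0.10 and 0.19 over 6 H/ACA proteins and -0.10 and 0.05 over 7 nonsense-mediated decay factors. Over 51 protein-coding host genes, listed from general knowledge and not only those of the members, the medians were 0.08 and 0.04. EIF5 (0.56) and TNPO2 (-0.56) were largest with ethanol and RPL23 (0.55) with acetaldehyde. The 5 non-coding hosts with a kept probe set, ZFAS1 among them, had medians of 0.05 and 0.15.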

How the data were processed

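Total RNA was labelled with biotin and hybridised to Human Gene 1.0 ST arrays, per the labels' protocols. The deposited values are linear intensity values of probe sets, for which the submitters' processing notes name RMA. Its software and genome build were not stated in any source used. They were turned to log2 with no offset. Of 33297 probe sets, 19460 name 1 gene in the platform annotation, 1754 several and 12083 none. Genes (18417) were read from the first kind, by the highest mean where a gene had several, which no member had. A gene was kept if its highest array reached the limit. Hosts were genes whose span held the member in the RefSeq table of GRCh38.p14, which matched all 51 members but gives no strand.

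Each group is 1 array, so no test was run, and called means at least 1.5-fold. The members and lists were chosen with earlier results of these data known. Genes named are the 6 highest and 6 lowest of each comparison, the 6 brightest, the 3 nearest the limit on either side, RNAs of ribosomal RNA precursor cleavage, members sharing a host with at least 2 others, and genes from the 3 largest differences of each list. Others, including members of smaller hosts, were named after their values were seen. Python 3.11.15, numpy 2.4.6, pandas 2.3.3 and matplotlib 3.10.9 were used. Alternatives covered normalization, centring, the limit, an offset, probe choice, shared hosts, the control and the fold. The host of 1 member named here is not reported.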

Additional observations from a re-analysis of the deposited data

Results flagged for a closer look

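SNORD45B, SNORD34 and SNORD104 differed in sign between the exposures, each by at least 0.15 (log2) from its own control. Acetaldehyde exceeded ethanol by 0.76 for SNORD45B, by 0.68 for SNORD34 and by 0.51 for SNORD104. The median of the H/ACA small nucleolar RNAs also differed in sign, with a gap of 0.37. These differences were not tested, since each is 1 array against 1. Probe sets left out of the gene comparisons carried a signal too. The 10 past the limit that name several SNORD genes and no other gene had an acetaldehyde median of 0.38, all above control 2, and an ethanol median of -0.25, with 2 of 10 above control 1. The 18 that name a SNORD gene and another gene had medians of 0.40 and 0.29, with 18 and 17 above the matched control.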

How the results depend on the processing

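No paired analysis was possible because each group holds 1 array. Normalizing all 4 arrays together, centring, averaging the probe sets of a gene and adding the probe sets that name several SNORD genes moved no median by over 0.1 and no count of called members by over 1.5 times. The median for acetaldehyde ran from 0.15 to 0.39 and that for ethanol from 0.0848 to 0.38 over all settings.

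Without the limit (115 genes) the called members, higher and lower, were 17 and 2 for ethanol, 18 and 1 for acetaldehyde and 22 and 20 for control 2 against control 1. The acetaldehyde median was then 0.26, and that between controls turned to 0.0792, with 0.22 over all genes. With the mean past the limit 5 members were higher in control 2. An offset of 50 left 5 higher with acetaldehyde. With 1 value per host gene (27 values) 2 were higher with ethanol, 3 with acetaldehyde and 2 in control 2, and 6 lower in control 2. At 2-fold, 1 was higher with ethanol, 0 with acetaldehyde and 2 in control 2, and 6 lower in control 2. Against the control of the other experiment the medians were 0.38 for ethanol, with 22 higher and 3 lower, and 0.15 for acetaldehyde, with 16 higher and 10 lower. SNORD4B turned to -0.29 with ethanol there and SNORD79 to -0.0148 with acetaldehyde. The cause was not tested. Values near the limit are the least certain, and the array count sets the precision.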
